A study of Mus musculus with 2 samples.

Results

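Vegfa, Vegfb, Serpinf1, Angpt1, Edn3, Enpp2, Mdk and Ramp2, 8 genes that code for vascular factors known from the retinal pigment epithelium (RPE), were followed through single RPE cells of 2 mice, R1 and R2. They were chosen by name, as the matrix rows with these symbols, and make up 8 of the 27998 genes listed. All but Ramp2 code for secreted proteins, whereas Ramp2 codes for a membrane protein that accompanies a receptor. R1 and R2 were male C57BL/6J mice of a single, untreated condition, killed at postnatal day 36, with an age of 4 to 5 weeks in the sample labels. RPE sheets, with both eyes combined for each mouse, were released from the peeled eyecup with trypsin and dissociated, so choroid and sclera lay next to the sampled tissue. Messenger RNA was counted as unique molecular identifiers (UMIs), each of which stands for 1 captured 3′ end, so that counts were not divided by gene length.

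Cells were divided by transthyretin (Ttr), an abundant transcript of the RPE. Cells in which Ttr made up at least 5% of UMIs were called Ttr-high, and cells with less than 3% were called Ttr-low. R1 had 2723 Ttr-high and 59 Ttr-low cells among 2844 deposited cells, and R2 had 2947 and 19 among 2994. No kept cell lay between the limits, the highest Ttr share of a Ttr-low cell being 2.66% in R1 and 0.755% in R2, and the lowest of a Ttr-high cell 5.18% and 5.14%. Ttr-high cells held 25660266 UMIs in R1 and 29542337 in R2, with a median of 8751 and 8158 per cell. Ttr-low cells held 192400 and 91115 UMIs, with medians of 3200 and 3836, so a gene with few UMIs is measured far less precisely in them. Intervals given here cover counting error only.

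The label of the Ttr-high cells was checked against 8 RPE markers. At least 3 of these had a UMI in each of the 2723 and 2947 Ttr-high cells. The same held for 49 of 59 Ttr-low cells of R1 and 13 of 19 of R2, so this count alone does not tell the groups apart. Rpe65, the isomerase of the visual cycle, stood at 47.6 and 49.2 UMIs per 10000 in Ttr-high cells and at 2.81 and 0.659 in Ttr-low cells. Best1, which codes for the chloride channel bestrophin-1, was nearly absent from Ttr-high cells, with 7 UMIs in R1 and 11 in R2. Whether the gene annotation used for counting, or the capture of 3′ ends, lowers the count of Best1 was not tested.

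The RPE lies between the photoreceptors and the fenestrated choriocapillaris. It is known to secrete vascular endothelial growth factor A (Vegfa) towards the choroid, which keeps that capillary bed in place, and pigment epithelium-derived factor (Serpinf1) towards the retina, which restrains vessel growth. Vegfb is a relative of Vegfa that binds the receptor Flt1, Angpt1 is the ligand of the endothelial kinase Tek, and Edn3 is an endothelin peptide that is needed by melanocyte precursors. Enpp2 codes for autotaxin, the secreted enzyme that makes lysophosphatidic acid. Mdk codes for midkine, a heparin-binding growth factor, and Ramp2 helps Calcrl to act as the adrenomedullin receptor.

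On GRCm38, Serpinf1 lies at chr11:75409769-75422701 on the minus strand and Edn3 at chr2:174760619-174784042 on the plus strand. Vegfa lies at chr17:46016993-46032369, Vegfb at chr19:6982473-6987651, Enpp2 at chr15:54838901-54952892, Angpt1 at chr15:42424723-42676977 and Mdk at chr2:91929805-91932297, each on the minus strand. Ramp2 lies at chr11:101246028-101259546 on the plus strand. In GENCODE M21 the Ramp2 gene model overlaps Vps25 on its own strand, so reads in the shared part could not be given to either gene with certainty. The other 7 genes have no overlap on their own strand.

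In Ttr-low cells Serpinf1 and Edn3 were found mainly in cells with fibroblast markers, as given further on, and the bases upstream of their RefSeq starts (GRCm38.p6) are therefore shown. For Serpinf1 these are chr11:75422702-75422873, minus strand, the part of the window upstream of every GENCODE transcript, and for Edn3 chr2:174760369-174760618, plus strand. Capitals mark ACGTG.
Serpinf1: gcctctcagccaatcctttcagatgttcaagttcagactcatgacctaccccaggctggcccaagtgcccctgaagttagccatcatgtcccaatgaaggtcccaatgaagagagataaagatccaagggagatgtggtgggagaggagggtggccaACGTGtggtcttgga
Edn3: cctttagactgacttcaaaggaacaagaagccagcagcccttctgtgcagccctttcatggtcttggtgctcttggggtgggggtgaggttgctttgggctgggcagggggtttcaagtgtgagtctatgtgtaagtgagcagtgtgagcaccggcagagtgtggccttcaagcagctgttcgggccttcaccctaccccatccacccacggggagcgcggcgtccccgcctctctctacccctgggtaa
The letters ACGTG, the core bound by hypoxia-inducible factors, were searched on both strands in the 250 bases before each RefSeq start of Vegfa, Vegfb, Serpinf1 and Edn3. Enpp2, Mdk, Ramp2 and Angpt1 had no window at hand and were not searched. The E-box CACGTG, which contains these letters, and the Sp1 core GGGCGG were searched likewise. ACGTG occurred once in the Serpinf1 window, 93 to 89 bases before the start, and in 16.6% of all 32851 windows of this length. It also occurred once before a second, inner Vegfa start, 211 to 207 bases upstream (window chr17:46025164-46025413), but not before the outermost one. The E-box was in 6.02% of all windows and in none of the windows of Vegfa, Vegfb, Serpinf1 and Edn3, and no motif was found in the Edn3 window. The Sp1 core occurred 4 times before the Vegfb start, 2 times before the outermost Vegfa start and once before the inner one, and in 32.7% of all windows. A match is a description of the sequence and not a binding site.

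Ttr-high cells held 5 of the 8 genes readily and 3 at few UMIs. Enpp2 was the highest, with a mean of 26.2 UMIs per 10000 in R1 (SD over cells 17.9, n = 2723) and 21.4 in R2 (SD 13.1, n = 2947). At least 1 Enpp2 UMI was seen in 98.5% and 98.6% of cells, and the median cell held 22.8 and 19.9 per 10000. Autotaxin mRNA was thus a common transcript of nearly every RPE cell, making up 0.270% and 0.217% of all UMIs.

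Mdk and Ramp2 followed at about the same level. Mdk averaged 5.05 UMIs per 10000 in R1 (SD 4.17) and 4.45 in R2 (SD 4.11), and was seen in 88.9% and 82.3% of cells. Ramp2 averaged 4.75 (SD 5.03) and 5.11 (SD 4.67), and was seen in 82.3% and 83.6%. The order of Mdk and Ramp2 differed between the mice, so these neighbours cannot be ranked. Calcrl, the receptor that Ramp2 accompanies, had 0 UMIs in Ttr-high and Ttr-low cells of both mice, which allows up to 3 UMIs in each sum.

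Of the growth factors, Vegfa averaged 1.86 UMIs per 10000 in R1 (SD 2.38) and 1.55 in R2 (SD 2.19). Vegfa was seen in 65.8% of cells in R1 (exact 95% Clopper-Pearson interval 64.0 to 67.6%) and in 55.7% in R2 (53.9 to 57.5%). Vegfb averaged 0.689 (SD 1.32) and 0.609 (SD 1.27), and was seen in 35.99% and 32.2%. Vegfa was above Vegfb in both mice.

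Serpinf1, Angpt1 and Edn3 had few UMIs. Serpinf1 had 14 UMIs in 12 of the Ttr-high cells of R1 and 41 UMIs in 20 of those of R2, or 0.00546 (0.00298 to 0.00915) and 0.0139 (0.00996 to 0.0188) per 10000 UMIs summed over cells. Angpt1 had 11 and 7 UMIs, each in a cell of its own, and Edn3 had 2 and 21 UMIs in 2 and 12 cells. On the same summed scale Vegfa stood at 1.80 and 1.58 per 10000 in R1 and R2. In the same libraries Serpinf1 stood at 22.1 per 10000 UMIs over 5 Ttr-low cells with fibroblast markers, described further on. Whether the annotation or 3′ capture lowers the Serpinf1 count in Ttr-high cells was, as for Best1, not tested. These counts therefore do not rank the mRNA levels of Serpinf1 and Vegfa.

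**Figure D1:**
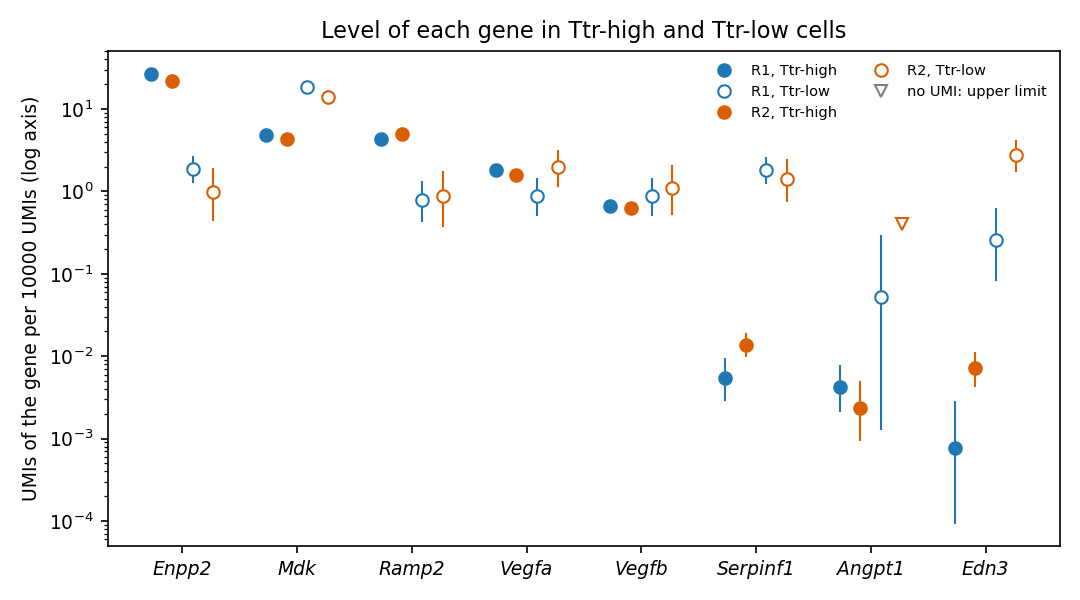
UMIs of each gene per 10000 UMIs, summed over the Ttr-high cells (filled) and Ttr-low cells (open) of R1 and R2, on a log axis with 95% Poisson intervals; the triangle is the upper limit of a sum without a UMI. In Ttr-high cells Enpp2 stands at 27.0 and 21.7, and Serpinf1, Angpt1 and Edn3 at 0.0139 or lower; in Ttr-low cells Mdk is the highest, at 18.7 and 14.0.

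The mice differed little in the 5 readily seen genes. The ratio of R1 to R2 on the summed scale was 1.24 for Enpp2 (95% counting interval 1.23 to 1.26), 1.14 for Vegfa (1.09 to 1.19), 1.10 for Mdk (1.07 to 1.12), 1.07 for Vegfb (1.00 to 1.14) and 0.877 for Ramp2 (0.856 to 0.899). Ramp2 was the only one of these 5 that was lower in R1. Serpinf1 (ratio 0.393, 0.198 to 0.736) and Edn3 (0.110, 0.0125 to 0.449) were lower in R1 by more, on few UMIs. With 1 library per mouse these ratios compare libraries and have no replicate check.

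The share of cells with a UMI followed the depth of the cell closely. When the Ttr-high cells of a mouse were divided by total UMIs into 3 bins of nearly equal size, Vegfa was seen in 46.0%, 66.2% and 85.3% of the shallowest, middle and deepest cells of R1 and in 28.4%, 59.1% and 79.7% of those of R2. Its level moved much less, at 2.15, 1.69 and 1.76 UMIs per 10000 in R1 and 1.37, 1.73 and 1.55 in R2. The shallowest bin was thus the highest for Vegfa in R1 and the lowest in R2, so a trend with depth did not recur.

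Cells without a Vegfa UMI therefore cannot be read as cells without Vegfa. After every cell was thinned to 4000 UMIs, with 370 and 726 shallower cells left out, Vegfa was seen in 44.6% of cells in R1 and 40.9% in R2, Vegfb in 21.5% and 18.9%, Mdk in 79.4% and 75.0%, Ramp2 in 67.8% and 76.4% and Enpp2 in 98.3% and 96.2%. The gap of R1 over R2 in the share of Vegfa-positive cells shrank with thinning and kept its sign.

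**Figure D2:**
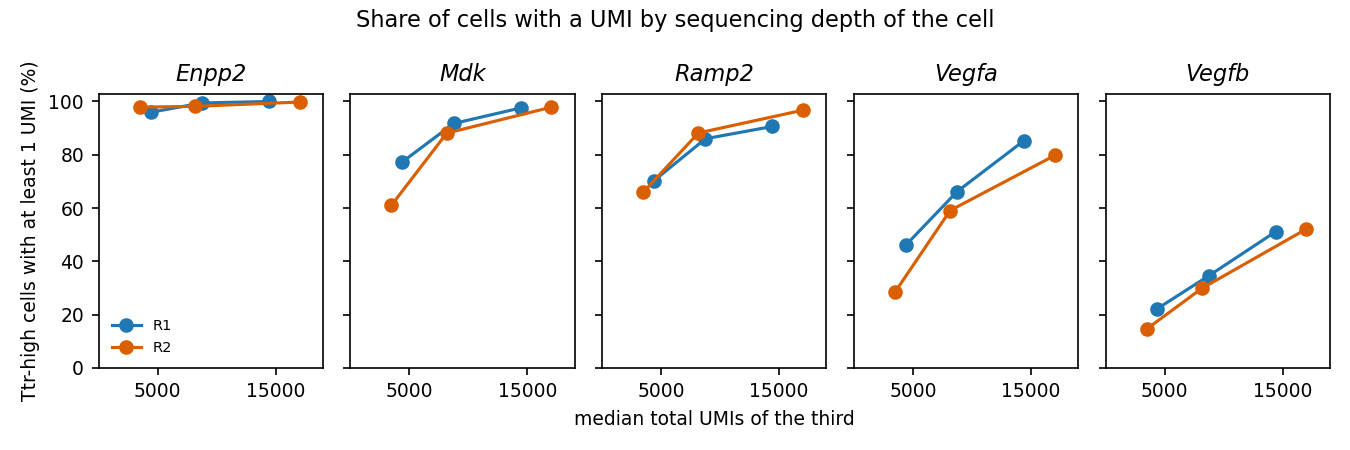
Percentage of Ttr-high cells with at least 1 UMI of each gene (y axis) against the median total UMIs of the shallowest, middle and deepest bin (x axis), in R1 and R2. Vegfa climbs from 46.0% to 85.3% in R1 and from 28.4% to 79.7% in R2, while Enpp2 is at 95.9% or above throughout.

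The variance of raw UMIs over cells exceeded their mean for the 5 readily seen genes. The ratio of this variance to the mean, which is 1 for pure counting noise at equal depth, was 19.3 and 24.3 for Enpp2, 4.72 and 5.26 for Ramp2, 3.24 and 4.18 for Mdk, 2.38 and 2.96 for Vegfa and 1.91 and 2.20 for Vegfb. Differences in depth between cells raise these ratios too, so they do not by themselves show spread beyond counting noise. The part of depth in them was not tested. Enpp2 ranged from 6.93 to 48.9 UMIs per 10000 between the 10th and 90th percentile of cells in R1 and from 5.83 to 38.7 in R2.

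Within the Ttr-high cells, Enpp2 was lower where Ttr was higher in R1. It stood at 28.8 UMIs per 10000 where Ttr made up 5 to 8% of UMIs, 29.6 at 8 to 10%, 26.4 at 10 to 15% and 20.1 above 15% in R1. The same bins gave 18.9, 23.5, 21.7 and 20.3 in R2, where the lowest bin held 33 cells and no ordered change was seen. Mdk stood at 4.00, 4.57, 4.90 and 5.14 in these bins of R1. In R2 it stood at 4.43, 4.26, 4.26 and 5.15, so only the highest bin was above the others. Between the lowest and highest bin, with Ttr left out of the total, Mdk went from 4.31 to 6.13 in R1 and from 4.78 to 6.15 in R2. Vegfa went from 2.12 to 1.75 in R1 and from 1.71 to 1.58 in R2. With Ttr left out of the total it went from 2.28 to 2.09 in R1 but from 1.84 to 1.89 in R2, so the direction in R2 turned. Enpp2 then stood at 31.0 in the lowest and 24.0 in the highest bin of R1, and at 20.4 and 24.3 in R2. Shares of one total are not independent of each other, and the 187 cells of R1 above 15% Ttr were shallower, with a median of 5522 UMIs.

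Vegfa and Serpinf1, the opposed factors of the group, could not be followed together in many cells. Only 12 Ttr-high cells of R1 and 8 of R2 held a UMI of each. Over all Ttr-high cells, Pearson's r of the log-scaled levels was 0.05 in R1 (n = 2723 cells) and -0.04 in R2 (n = 2947), and r of depth-corrected residuals was 0.03 and -0.03. The sign differed between the mice, and a correlation this weak in counts this sparse is no finding in either direction. All cells of a mouse share a library, and both genes share each cell's depth.

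The same holds when cells are counted. In R1 each of the 12 Serpinf1-positive cells held Vegfa, against 65.7% of the others, but they were deeper, with a median of 10799.5 against 8749 UMIs. In R2, 8 of the 20 Serpinf1-positive cells held Vegfa, or 40.0%, against 55.8%, and these were shallower, with a median of 4261 against 8161. Per 10000 UMIs, Vegfa was at 2.19 (1.46 to 3.17) with Serpinf1 and 1.80 (1.74 to 1.85) without it in R1, and at 1.42 (0.949 to 2.04) and 1.58 (1.53 to 1.62) in R2. The intervals overlapped in both mice.

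**Figure D3:**
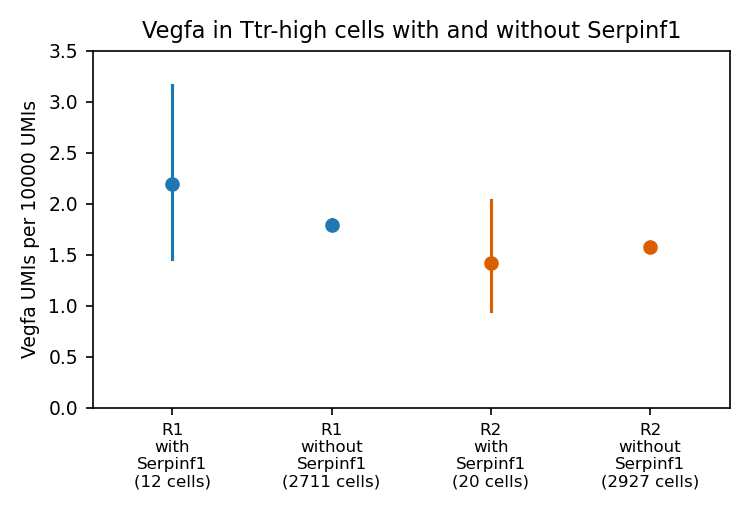
Vegfa UMIs per 10000 UMIs (y axis) in Ttr-high cells with and without a Serpinf1 UMI, in R1 and R2, with 95% Poisson intervals. The cells with Serpinf1, 12 in R1 and 20 in R2, have wide intervals that include the level of the cells without it in each mouse.

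Serpinf1-positive Ttr-high cells of R2 carried fibroblast transcripts more often than other cells did. Of those 20 cells, 9 had a UMI of at least 1 of 6 fibroblast markers (Col1a1, Col1a2, Col3a1, Dcn, Lum and Pdgfra), against 69 of all 2947 Ttr-high cells, and of the 12 Edn3-positive cells 8 did. In R1, 1 of the 12 Serpinf1-positive cells and 0 of the 2 Edn3-positive cells had one, against 50 of 2723. Serpinf1 and Edn3 had the only correlation above 0.1 among the 28 pairs of members, at r = 0.19 in R2 on 3 cells that held both, and -0.00155 in R1. The part of fibroblast RNA or of cell doublets in these UMIs was not tested.

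No other pair of members came near that value. For the pairs among Enpp2, Mdk, Ramp2, Vegfa and Vegfb, r of the log-scaled levels lay between -0.07 and 0.06 in both mice. On raw counts the same pairs gave values up to 0.40, in step with the shared depth of a cell.

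The genes whose residuals were most like those of Vegfa in both mice, among 4438 genes compared, were Gm42418 (r = 0.17 in R1 and 0.15 in R2), Timp3 (0.16 and 0.14), mt-Cytb (0.20 and 0.12), mt-Nd1 (0.17 and 0.11) and Malat1 (0.20 and 0.11). Timp3, an inhibitor of matrix proteases that also blocks binding of Vegfa to its receptor, was the only secreted factor among these 5. Vegfa residuals also had r = 0.18 in R1 and 0.11 in R2 with the mitochondrial share of a cell's UMIs. Mitochondrial RNA and Malat1 thus moved with Vegfa, and their part in its variation was not tested. For Serpinf1 the most similar genes, Pdxdc1, Anxa5, Rbfa and Tmem29, had a smaller r of 0.06 or less, and none stood out.

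Ttr-low cells were a mixture, which bears on each change that follows. Of 59 such cells in R1 and 19 in R2, 48 and 13 carried at least 3 of 8 genes of a list led by Pax6 and Dkk3, 3 and 2 carried at least 3 fibroblast markers, and 2 and 1 at least 3 microglia or macrophage markers. Another cell of R1 reached 3 melanocyte markers, as 110 and 73 Ttr-high cells of R1 and R2 did, but also had all 8 Pax6/Dkk3 genes. It is called melanocyte-marked and was not counted among the 48. The remaining 5 and 3 Ttr-low cells reached none of these lists and are called unmatched. Each had 2 Pax6/Dkk3 genes, 1 short of the cutoff, and all apart from a cell of R2 had at least 3 RPE markers. Endothelial markers were nearly absent, with 5 of 7 (Pecam1 and Cdh5 among them) at 0 in R1 and 6 of 7 at 0 in R2. The median mitochondrial share was 2.57% and 3.35% in Ttr-low against 1.29% and 1.25% in Ttr-high cells, and of 7 genes known to respond to tissue dissociation 2 were higher in Ttr-low cells (Fos and Junb) and 1 lower (Hspa1a). The part of these differences in the changes of the members was not tested. RPE markers had a mean summed level of 35.3 and 25.7 UMIs per 10000 in Ttr-low against 383 and 445 in Ttr-high cells.

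Of the 8 genes, 7 passed the filter on low counts and were tested between Ttr-low and Ttr-high cells with counts summed per mouse (edgeR quasi-likelihood test, mouse as block, n = 2 mice). With so few sums the p-values rest almost wholly on variation pooled over genes. They are no measure of the spread of a gene between the 2 mice. Serpinf1, Edn3 and Mdk were higher and Enpp2, Ramp2 and Vegfa were lower at an adjusted p under 0.05, and Vegfb did not pass. Over all 11577 genes tested, 11.1% were called, 4.22% higher and 6.87% lower. Serpinf1 and Edn3 passed the filter only through the Ttr-low sums, where they are high, so their calls are no support beyond the counts. Angpt1, with 1 and 0 UMIs in Ttr-low cells, was not tested.

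Scaling shifted each value. The median log2 fold change (log2FC) of all genes tested was -0.39 with TMM scaling and 0.36 without it, so changes are also given relative to the median. In simulated sums with no gene changed this median was already -0.25 with TMM, so it is a reference and not an exact zero. Relative to it, Vegfa was at -0.75 with and -0.72 without TMM, and Vegfb at 0.22 and 0.23.

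Of the 7 genes tested, Enpp2 had the largest fall. Its sum was 36 UMIs in Ttr-low cells of R1 against 69212 in Ttr-high cells, and 9 against 64044 in R2. Per 10000 UMIs this was 14.4-fold lower in R1 (95% counting interval 10.4 to 20.6) and 21.9-fold lower in R2 (11.6 to 48.0), with a log2FC of -4.83 (SE 0.39, adjusted p = 4.1e-33 by edgeR). The UMIs were spread thinly, with at most 3 in a cell and 29 of 59 and 6 of 19 cells positive. After thinning to 2000 UMIs, 27.1% and 5.26% of Ttr-low cells had Enpp2, against 93.4% and 92.4% of Ttr-high cells. The 3 cells with microglia markers had 0 Enpp2 UMIs among 8353, which allows up to 3. Ttr itself was at a median of 0.632% and 0.391% of UMIs in Ttr-low cells against 11.2% and 13.0% in Ttr-high cells. After subtracting 10% of ambient RNA the Enpp2 log2FC was -17.92, on Ttr-low sums at or near 0. The 10% was a setting and not an estimate, so the part of free RNA in the Enpp2 UMIs of Ttr-low cells was not tested.

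Ramp2 fell in both mice as well. The sums of Ttr-low cells held 15 and 8 Ramp2 UMIs in R1 and R2 and those of Ttr-high cells 11192 and 14686, which was 5.59-fold (3.39 to 10.0) and 5.66-fold (2.87 to 13.1) lower, with a log2FC of -3.25 (SE 0.40, adjusted p = 1.73e-14 by edgeR). The fibroblast-marked cells held 11 of the 15 and 3 of the 8 UMIs, and each of these 5 cells had at least 1. In the Pax6/Dkk3-marked cells alone Ramp2 was at 2 UMIs in 48 cells of R1 and 5 in 13 cells of R2, and the log2FC was -4.59.

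Mdk was the member that rose among the readily seen genes. It had 359 UMIs in the 59 Ttr-low cells of R1 and 128 in the 19 of R2, or 18.7 and 14.0 per 10000 against 4.79 and 4.37 in Ttr-high cells. This was 3.89-fold (3.496 to 4.32) and 3.22-fold (2.68 to 3.83) higher, with a log2FC of 1.05 (SE 0.30, adjusted p = 0.00532 by edgeR) and 1.44 relative to the median gene. Mdk was widespread and not the mark of a few cells, as 54 of 59 and 18 of 19 Ttr-low cells held it, with at most 16 and 17 UMIs in a cell. The Pax6/Dkk3-marked cells held 302 and 91 of these UMIs and the 8 unmatched cells 72 in all. The fibroblast-marked cells held 9, the microglia-marked cells 1 and the melanocyte-marked cell of R1 12. With only the Pax6/Dkk3-marked cells the log2FC was 1.01 and the adjusted p 0.132.

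Vegfa was lower by the fitted change, but the mice did not move alike on the plain scale. R1 had 17 Vegfa UMIs in Ttr-low cells against 4612, a ratio of 0.492 (0.286 to 0.788), whereas R2 had 18 against 4656, a ratio of 1.25 (0.742 to 1.98) that includes 1. On the TMM scale the log2 change was -1.70 in R1 and -0.55 in R2, and the fitted log2FC was -1.14 (SE 0.40, adjusted p = 0.03998 by edgeR). The call is fragile, since 6 of 15 alternatives with a test kept it and DESeq2 gave an adjusted p of 0.267. Among these 6, the settings with only Pax6/Dkk3-marked cells and without the richest Ttr-low cells were chosen after seeing the data. The latter removes the cell of each mouse with most Vegfa and so lowers Vegfa by its choice of cells. That it kept the call is therefore no support for a fall.

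The Vegfa UMIs of R2 came from few cells. The 3 unmatched cells, with 2 Pax6/Dkk3 genes each, held 4, 1 and 6 of the 18 UMIs, and the 13 Pax6/Dkk3-marked cells held 7. Among the latter were the deepest Ttr-low cells of R2, with 13692, 10880 and 9332 UMIs, which held 1, 1 and 0 Vegfa UMIs and weigh on the sum. As a mean over cells, Vegfa was at 2.84 per 10000 in Ttr-low cells of R2 (SD 6.04, n = 19) against 1.55 in Ttr-high cells. In R1 these means were 0.899 (SD 1.88, n = 59) and 1.86. Without the richest Ttr-low cell of each mouse the ratio was 0.419 in R1 and 0.862 in R2. No Ttr-high cell was left out to match, so a lower ratio follows from the choice of cell. No Vegfa UMI was found among the 16707 UMIs of the 5 fibroblast-marked cells or the 8353 of the 3 microglia-marked ones. This allows up to 3 UMIs in each sum, so at this depth neither absence nor a lower level is shown. In the Pax6/Dkk3-marked cells alone Vegfa was at 0.635 UMIs per 10000 in R1 and 0.966 in R2, and the log2FC was -1.89 (adjusted p = 0.00574 by edgeR). This setting, chosen after seeing the data, also leaves out the 8 unmatched cells, which held 15 Vegfa UMIs in both mice together. The melanocyte-marked cell of R1, which held 3 Vegfa UMIs and had all 8 Pax6/Dkk3 genes, is left out too. When only the cells marked for another type were left out, the log2FC was -1.05 (adjusted p = 0.148 by edgeR).

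Vegfb did not pass the test. It had 17 and 10 UMIs in Ttr-low cells against 1706 and 1838, a ratio of 1.33 (0.772 to 2.13) in R1 and 1.76 (0.845 to 3.25) in R2. The log2FC was -0.17 (SE 0.48, adjusted p = 0.899 by edgeR) with TMM and 0.59 without scaling. With 27 UMIs in all, neither a rise nor a fall could be shown.

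**Figure D4:**
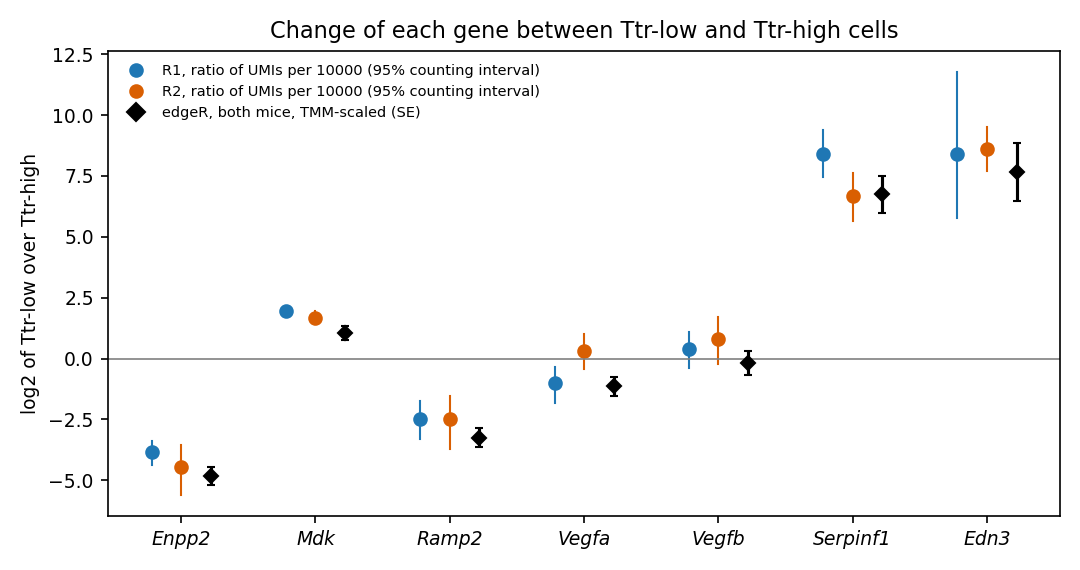
Log2 of Ttr-low over Ttr-high for the 7 genes tested: circles, ratio of UMIs per 10000 in R1 and R2 with 95% counting intervals; diamonds, edgeR log2FC over both mice after TMM scaling, with SE. Enpp2 and Ramp2 lie below 0 and Mdk, Serpinf1 and Edn3 above 0 in each mouse; Vegfa is at -1.02 in R1 and 0.33 in R2.

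Serpinf1 was concentrated in Ttr-low cells with fibroblast markers. It had 35 UMIs in 7 Ttr-low cells of R1 and 13 UMIs in 3 cells of R2. The fibroblast-marked cells held 14, 7 and 5 UMIs in R1 and 10 and 1 in R2, so all 5 had it and together they carried 37 of the 48 UMIs, at 22.1 per 10000 UMIs. Of the 61 Pax6/Dkk3-marked cells 4 held Serpinf1, with 10 UMIs, 6 of them in 1 cell, and of the 8 unmatched cells 1 held 1 UMI.

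Per 10000 UMIs, Serpinf1 was at 1.82 (1.27 to 2.53) in Ttr-low cells of R1 and 1.43 (0.760 to 2.44) in R2, above the 0.00546 and 0.0139 of Ttr-high cells, and the log2FC was 6.74. With only the Pax6/Dkk3-marked cells it was 4.83, on 8 and 2 UMIs. Serpinf1 was not among the markers that defined any of these groups.

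Edn3 rested on 2 cells. A fibroblast-marked cell of R1 held 5 UMIs and another of R2 held 25, and no other Ttr-low cell held any. The fitted log2FC was 7.65, and without these 2 cells Edn3 had no UMI left in Ttr-low cells and could not be tested. Angpt1 had 1 UMI, in a Pax6/Dkk3-marked cell of R1.

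**Figure D5:**
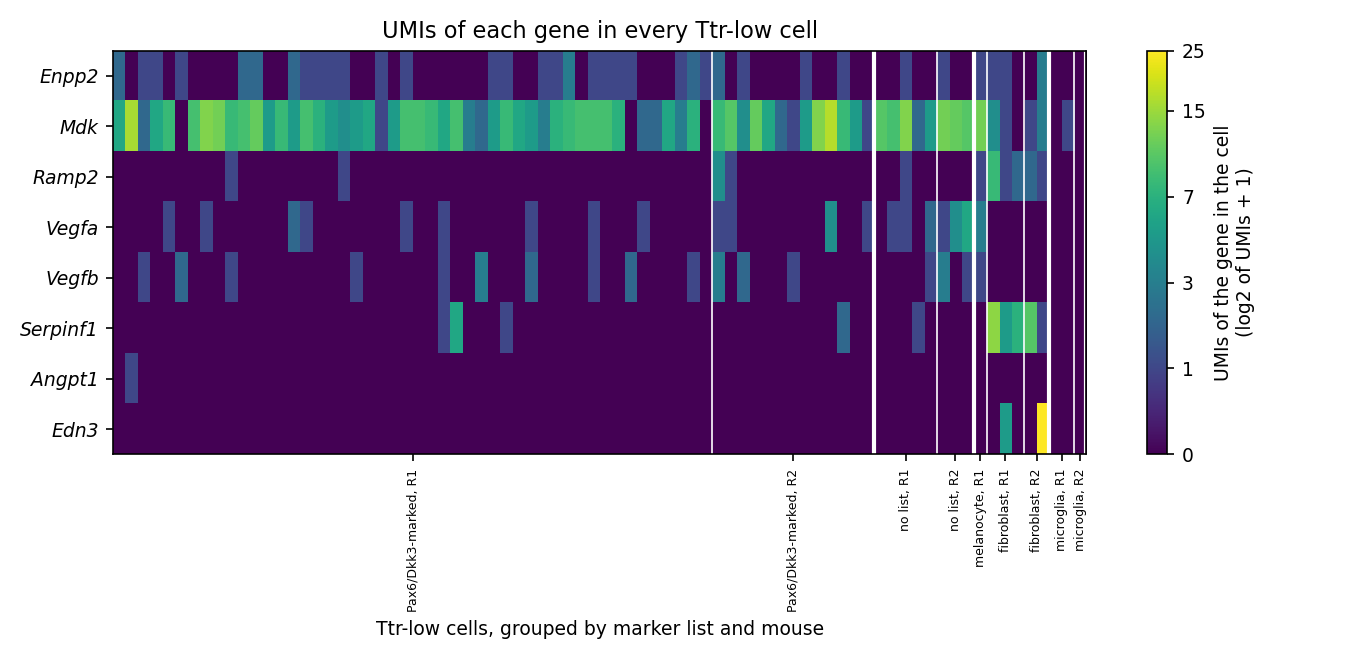
UMIs of each gene (rows, colour on a log2 scale of UMIs + 1) in each of the 78 Ttr-low cells (columns), grouped by marker list and mouse. The unmatched cells are labelled "no list". Mdk fills most columns, Serpinf1 is brightest in the 5 fibroblast-marked cells, and Edn3 is seen in 2 of these, with 5 and 25 UMIs.

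Genes around the 8 members were counted in 5 lists, 90 genes in all, of which 60 could be tested, 11 were higher and 8 lower in Ttr-low cells. The background is again 4.22% higher and 6.87% lower. Of the 11 higher genes, 7 (Angptl2, Ptn, Timp1, Adamts1, Nrp1, Ptprz1 and Ndrg1) passed the filter on low counts only through the Ttr-low sums, where they are high, so their calls are no support beyond the UMIs given and the counts of higher genes per list include them. The other 4 were Ccn2, Sparc, Plpp3 and Ldha. Unlike the members, the list genes were not split by kind of Ttr-low cell. The part of the fibroblast-marked cells in their changes was not tested. Of 25 other vascular ligands 15 were tested, 3 were higher and 3 lower, with a median log2FC of -1.35 against -0.39 over all genes. This median includes genes with 0 UMIs in both Ttr-low sums, such as Pdgfc and Apln, and shows no fall of the ligands as a group. The medians were -0.86 for angiogenesis inhibitors, 0.36 for receptors, 0.000284 for processing or control genes and 0.84 for hypoxia targets.

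Among these ligands, Sema3c, a semaphorin, was the most abundant in Ttr-high cells, at 3.20 UMIs per 10000 in each mouse. In Ttr-low cells it was at 0.296 per 10000 in R1, on 5 UMIs, and had 0 UMIs in R2, where it was at least 9.82-fold lower. Angptl4, a lipase inhibitor that acts on vessels, was at 1.16 and 1.10 per 10000 in Ttr-high cells. It was lower in Ttr-low cells (log2FC -3.78, adjusted p = 3.01e-07 by edgeR), at 0.153 per 10000 in R1, with sums of 3 and 1 UMIs. Pdgfc went from 521 and 522 UMIs to 0 in both mice, of which only R1 has the depth to show a fall, of at least 1.30-fold. Pdgfa, at 1.33 and 1.16 per 10000, did not pass (log2FC -1.12, adjusted p = 0.0723 by edgeR).

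Ptn, which codes for pleiotrophin, the closest relative of midkine, had 5 and 4 UMIs in Ttr-high cells and 28 and 35 in Ttr-low cells. Angptl2, an angiopoietin-like factor, had 6 and 6 against 31 and 15 UMIs, and Ccn2, a matricellular growth factor, 50 and 65 against 21 and 4 (log2FC 4.44). Each was nearly absent from Ttr-high cells.

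Of 15 angiogenesis inhibitors 9 were tested, 3 were higher and 3 lower. Timp3 was the most abundant of the list in Ttr-high cells, at 30.4 and 27.9 UMIs per 10000. It was lower in Ttr-low cells (log2FC -2.56, SE 0.33, adjusted p = 6.76e-13 by edgeR), at 7.43 per 10000 in R1, with sums of 145 and 90 UMIs. Thbs1, thrombospondin-1, had 5209 and 5314 UMIs in Ttr-high cells and 12 and 0 in the far smaller Ttr-low sums (log2FC -3.12). In R1 this was 1.98 against 0.699 per 10000. Col4a3, whose collagen chain yields tumstatin, had 2872 and 2404 against 1 and 0 UMIs (log2FC -5.60), in R1 1.18 against 0.0499 per 10000. Both were lower in each mouse, at least 5.46-fold for Thbs1 and 2.47-fold for Col4a3 in R2.

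Sparc, a matricellular protein that binds Vegfa, was at 3.25 and 2.75 UMIs per 10000 in Ttr-high cells. It was higher in Ttr-low cells (log2FC 2.08, SE 0.30, adjusted p = 3.34e-10 by edgeR), at 19.8 per 10000 in R1, with sums of 389 and 221 UMIs. Adamts1 had 35 and 14 UMIs in Ttr-high cells against 23 and 10 in Ttr-low cells, and Timp1 8 and 7 against 7 and 4. Timp2, at 2.28 and 1.99 per 10000, did not pass (log2FC -0.19).

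Receptors of the members were rare in these cells apart from those with wider roles. Of 27 genes 17 were tested, 2 were higher and 1 lower. Flt1 had 31 and 57 UMIs in all Ttr-high cells and Kdr, the main signalling receptor of Vegfa, 10 and 27. Lrp1, an endocytic receptor that also takes up midkine, was at 3.68 and 3.09 UMIs per 10000 and fell in Ttr-low cells (log2FC -1.74, adjusted p = 2.92e-05 by edgeR). Sdc4, a heparan sulphate proteoglycan, was at 1.87 and 1.85 and did not pass (log2FC -0.91), as did Lrp6, at 0.403 and 0.322 (log2FC -0.73).

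Ptprz1, the receptor phosphatase for midkine and pleiotrophin, had 26 and 15 UMIs in Ttr-high cells and 22 and 9 in the far smaller Ttr-low sums. Nrp1, a co-receptor of Vegfa, had 15 and 6 against 8 and 8.

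Of 11 genes that process or control the members 10 were tested, 1 was higher and 1 lower. Epas1, the hypoxia-inducible factor 2α subunit, was at 3.18 and 2.90 UMIs per 10000 and fell (log2FC -1.85, SE 0.37, adjusted p = 1.82e-05 by edgeR). Hif1a, at 0.873 and 0.762, did not pass (log2FC 0.18), nor did the prolyl hydroxylase gene Egln2, at 0.739 and 0.661 (log2FC -0.66). Plpp3, a phosphatase that degrades lysophosphatidic acid, was higher in Ttr-low cells (log2FC 3.76, adjusted p = 0.0164 by edgeR). It had 49 and 66 UMIs in Ttr-high cells and 4 and 9 in the far smaller Ttr-low sums.

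Of 12 hypoxia targets 9 were tested, 2 were higher and 0 lower. Slc2a1, the glucose transporter of the RPE, was the highest at 9.65 and 9.04 UMIs per 10000 and did not pass (log2FC 0.02). Ldha, lactate dehydrogenase A, rose from 0.978 and 0.988 per 10000 (log2FC 1.63, adjusted p = 2.18e-05 by edgeR). Ndrg1 had 5 and 4 UMIs in Ttr-high cells and 24 and 12 in Ttr-low cells. Ddit4, at 0.593 and 0.640, did not pass (log2FC 0.88).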

How the data were processed

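The authors aligned 10x Genomics 3′ reads to GRCm38 (mm10) with Cell Ranger 1.2.0, as the submitters' processing notes name it, and deposited raw UMI counts per gene and cell for each mouse, before ambient RNA, doublets or poor cells were removed. The cells of 1 mouse form 1 library, and 12 cell barcodes occurred in both libraries.

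Cells with under 500 genes (4 and 0) or over 5% mitochondrial UMIs (58 and 28) were left out. Levels are means over cells per 10000 UMIs, or summed UMIs per 10000 with Poisson intervals. Both sums of a mouse come from the same animal, so the mouse entered as a block. Counts were summed over Ttr-low and Ttr-high cells of each mouse, and the 4 sums were tested with edgeR 4.0.16 (TMM, filterByExpr, quasi-likelihood, Benjamini-Hochberg, 0.05); SE is the log2FC over the root of F. DESeq2 1.42.0 was an alternative. No doublet caller was run; removing the 4% of cells with most UMIs was an alternative. For correlations, levels were log-transformed or replaced by Pearson residuals (theta 100). Tested on simulated data with 200 genes changed by a log2 change of 3, edgeR called 165 of 11228 genes, 159 of them changed ones; with no change, it called 0 and the median log2FC was -0.25. Named genes were the 8 members, list genes that passed in the same direction in both mice, the 3 highest of each list in Ttr-high cells, and the 5 genes most like Vegfa and Serpinf1, of which 1 is not reported here; Calcrl, Flt1, Kdr and the dissociation genes were named after their values were seen. The members and lists were chosen with earlier results of these data known, and the Pax6/Dkk3 list draws on genes that the study chose on these cells. Upstream bases are from RefSeq starts, with windows at hand for 4 of the 8 genes (Vegfa, Vegfb, Serpinf1 and Edn3), and positions are from GENCODE M21.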

Additional observations from a re-analysis of the deposited data

Results flagged for a closer look

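Ttr-high cells with over 5% mitochondrial UMIs, 50 in R1 and 26 in R2, were left out of every comparison except the alternative without a mitochondrial limit, and some members stood above the kept Ttr-high cells in them. Vegfa was at 2.58 UMIs per 10000 in R1 (lower 95% Poisson limit 1.82, on 37 UMIs) and 3.22 in R2 (2.17, on 30 UMIs), against 1.80 and 1.58 in kept cells. Vegfb was at 1.81 in R1 (1.18, on 26 UMIs) against 0.665, but at 0.752 in R2 (0.302, on 7 UMIs) against 0.622. Ramp2 was at 6.07 in R1 (4.86, on 87 UMIs) against 4.36.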

How the results depend on the processing

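Enpp2 and Ramp2 kept their direction and their call under every alternative that gave a test, while Vegfa kept its call under 6 of 15 and Mdk under 13 of 15. Leaving out the richest Ttr-low cells lowers a gene by the choice of cells, so it is no check on the falls of Enpp2, Ramp2 and Vegfa. Serpinf1 and Edn3 passed the filter through the Ttr-low sums, so their calls say nothing about stability. The Vegfa log2FC was -1.02 with DESeq2 size factors in edgeR, -0.37 without scaling, -1.19 without a filter, -1.02 with DESeq2 (adjusted p = 0.267), -1.02 with Ttr-high cells at or over 10% Ttr, -1.05 without the Ttr-low cells marked for another type, -0.42 without the Pax6/Dkk3-marked cells, -1.12 without the 4% of cells with most UMIs and -1.24 after subtracting 10% of ambient RNA, none of which passed in edgeR or DESeq2 (adjusted p from 0.0503 to 0.891). Mdk was at 0.62 without the Pax6/Dkk3-marked cells and at 1.01 with only these, and did not pass in either. The median log2FC of all genes was -2.32 without these cells and -0.46 with only these, against -0.39 in the main test. Without them, the Ttr-low sums held only 28398 UMIs in R1 and 18647 in R2 for 11303 genes tested, so many genes had few or no UMIs there. That Mdk at 0.62 and Vegfa at -0.42 lay above the median gene of that setting therefore shows no rise of either. Over both mice, Mdk stood at 32.7 UMIs per 10000 in unmatched and 17.1 in Pax6/Dkk3-marked cells. It was lower in fibroblast-marked cells, at 5.39, and in microglia-marked ones. Vegfb changed sign, to 0.59 without scaling and 0.019 without the mitochondrial limit, and passed in none. Edn3 could not be tested without the cells marked for another type, with only the Pax6/Dkk3-marked cells or without its richest cell of each mouse. The cause of these changes was not tested.

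With the mouse as block, 1284 genes were called (489 higher), and 2287 had an unadjusted p under 0.05. Without the replicate block 2261 were called, and no member's call changed. DESeq2 called 935, and no scaling 1458, of which 73.3% were higher, against 38.1%. Without the Pax6/Dkk3-marked cells 596 genes were called, and with only these 847. The last setting, leaving out the richest Ttr-low cell and thinning to 2000 UMIs were chosen after seeing the data. With 1 mouse left out, values without a test ranged over the mice from -1.70 to -0.55 for Vegfa, -0.27 to -0.06 for Vegfb, 5.80 to 7.68 for Serpinf1, 7.54 to 7.70 for Edn3, -5.33 to -4.53 for Enpp2, 0.81 to 1.28 for Mdk and -3.38 to -3.16 for Ramp2.

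The correlation of Vegfa and Serpinf1 in R1 fell to 0.00997 in the deepest cells, and in the middle cells of R2, which had no Serpinf1 UMI, none could be computed. Of 80 alternative levels in Ttr-high cells 22 moved beyond the counting interval, mainly by leaving Ttr out of the totals or by summing over cells, and 13 of 32 shares moved, all of them by thinning. The ambient setting gave Enpp2 a log2FC of -17.92, which follows from sums at or near 0. With 78 Ttr-low cells, genes with few UMIs have wide intervals.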
